A study of Mus musculus with 5 samples.

Results

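The ribosomal RNA genes of the mouse are tandem repeats, and the mm10 assembly carries a copy of the start of the repeat, named Rn45s, on chromosome 17. The region described here is a window of 6001 bases around that copy, set by its position and not by a level of its CpGs, though with earlier results of these data known, with every listed cytosine kept whatever its coverage. It held 600 CpGs among 13079937 listed in the series, and 584 of them had at least 10 reads in each of the 5 libraries, against 984827 such CpGs on all nuclear chromosomes. The first listed CpG lies at 39843001 and the last at 39848822 of chromosome 17. Positions below are counted in bases from 1 at the first base of the window, so the first listed CpG is at base 102.

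Sperm DNA was sequenced after bisulfite conversion, which leaves methylated cytosines to be read as C. It came from swim-out sperm of the cauda epididymis, the storage end of the epididymis, of C57BL/6 mice. The 3 young libraries came from mice aged 2 months and the 2 old libraries from mice aged 18 months; no other treatment or allele is named for either group. It is unknown here if the 5 libraries stand for separate animals, so the spread over libraries may be technical. The exact tests rest on the values of the libraries alone. The main model for single CpGs instead uses a dispersion drawn strongly towards that of other CpGs. Its p-values therefore give the window's own spread over libraries almost no weight, as described below. The label sperm could not be checked on paternally imprinted genes, since none of the 3 chosen (H19, Rasgrf1, Meg3) had a gene end with enough CpGs covered in all 5 libraries. Genes imprinted in the maternal germline, whose control regions are known to be unmethylated in sperm, were measured at 3 of 10 ends. Nnat was low, at 16.6% ± 7.05 (young) and 17.2% ± 0.256 (old), but Snrpn was at 75.2% ± 8.90 and 77.6% ± 1.89 and Plagl1 at 95.3% ± 2.98 and 94.8% ± 3.19. With every CpG listed in all 5 libraries, 6 of 10 ends were measured. This added Peg3 at 34.2% ± 18.3 (young) and 36.5% ± 5.85 (old), Kcnq1ot1 at 96.5% ± 3.11 and 98.1% ± 0.799, and Peg10 at 97.4% ± 2.23 and 94.7% ± 1.89. Whether the 5 CpGs measured at Snrpn and the 4 at Plagl1 lie inside the control regions was not tested. Their high levels therefore do not decide on the label. Values of single libraries are given in the order of the replicate numbers within each age. Listed reads summed to between 67774094 and 97769462 per library, and the window held 155074, 166478 and 81005 of them for the 3 young libraries and 189822 and 262819 for the 2 old ones.

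RNA polymerase I transcribes each repeat into a long precursor that starts with the 5′ external transcribed spacer, which is later removed, and continues with the 18S, 5.8S and 28S rRNAs. In somatic cells a part of the copies is silenced and carries CpG methylation, while other copies stay unmethylated and active. Late spermatids and sperm do not transcribe these genes. The annotation used here has no entry named Rn45s, but it lists Rn18s-rs5, an 18S rRNA-related pseudogene, at 39846354 to 39848202 (bases 3455 to 5303 of the window), and the noncoding gene AY036118, which begins at 39848112. The stretch before Rn18s-rs5 lies where the repeat has its external spacer. A single place in the assembly can collect reads from many near-identical copies, so a level here is an average over copies and sperm. A few fully methylated copies and partial methylation of all copies cannot be told apart in it.

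The window was far less methylated than the rest of the genome and varied strongly from library to library. Its mean level over the 584 CpGs was 33.4%, 48.0% and 24.7% for young replicates 1, 2 and 3, and 44.6% and 55.4% for old replicates 1 and 2. Old replicate 2 was the highest and young replicate 3 the lowest, while young replicate 2 lay between the old libraries, so the ages overlapped. The mean was 35.4% ± 11.8 (SD, n = 3) at 2 months and 49.97% ± 7.61 (SD, n = 2) at 18 months. The difference of 14.6 points did not pass the test (two-sided exact permutation test over 10 splits, p = 0.3). The smallest p that 3 against 2 libraries allow is 0.1. The difference was above 0 in all 17 alternative settings, from 7.94 to 20.9 points, and it was 9.29 without young replicate 3 and 9.24 without old replicate 2.

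**Figure D1:**
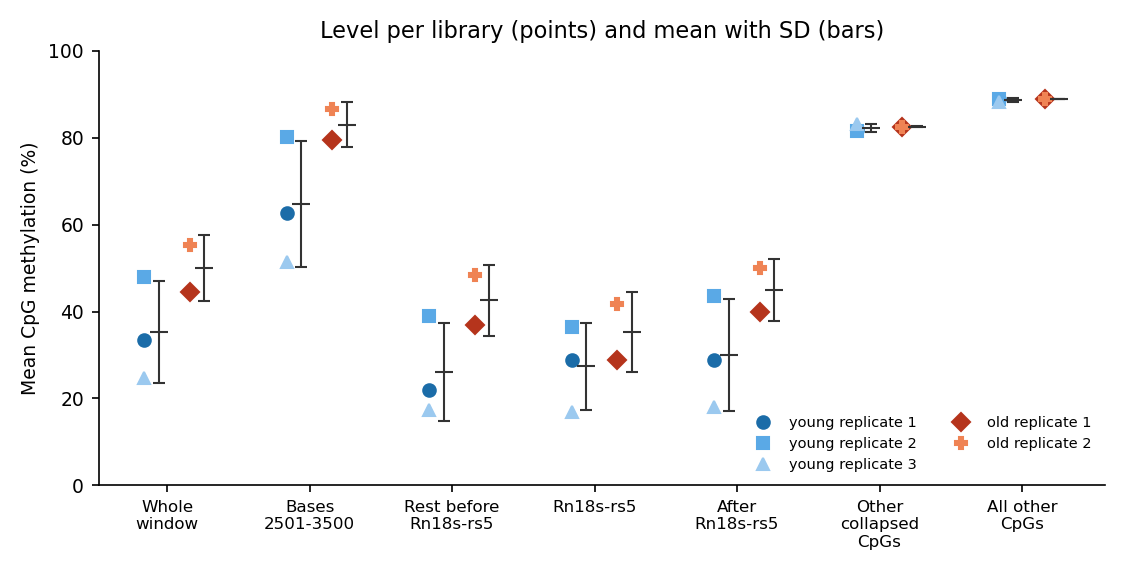
Mean CpG methylation in percent (vertical axis) of the Rn45s window, of its stretches (labelled with bases counted from the window's first base) and of other CpGs; each marker is a library and the black bars are the mean and SD of 3 young and 2 old libraries. The window spans 24.7% to 55.4% over the libraries, while the other collapsed CpGs span 81.5% to 83.2%.

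Means over large sets of other CpGs, in which differences of single places can average out, did not share this spread. By single CpG, the median range over the libraries was 31.3 points in the window and 9.09 points over all tested CpGs. CpGs outside the window under the top 0.1% of coverage were at 88.7% ± 0.440 (young) and 88.9% ± 0.0694 (old), and their libraries differed by at most 0.821 points. The window was 47.5 points below them on average and lower in 5 of 5 libraries (two-sided exact sign-flip test, p = 0.062, the smallest possible). The 3774 other CpGs in the top 0.1% of coverage of every library were at 82.2% ± 0.915 and 82.5% ± 0.0756. Their range was 1.74 points over the libraries, against 30.7 points for the window. They were covered more deeply than the window, with a mean of 1254 to 1331 reads per CpG in a library against 139 to 449. Most of the window is thus not of like coverage to this set. The window was 41.1 points lower than these (exact sign-flip test, p = 0.062). Weighted by coverage the gap was 4.78 points (exact sign-flip test, p = 0.6875). This weighting counts the deeply covered and highly methylated stretch described below more strongly. It raised the window to 45.2% ± 17.5 (young) and 65.9% ± 7.25 (old). That rise is smaller than the fall of the gap, so the other CpGs in the top 0.1% were also lower when weighted. Flanking CpGs within 10 kb averaged 63.2% ± 6.18 (young) and 65.4% ± 8.55 (old) before the window (16 CpGs) and 64.9% ± 3.05 and 69.5% ± 2.01 after it (11 CpGs). Their means ranged over the libraries by 14.2 points before the window and by 8.88 points after it. Mitochondrial CpGs, taken as a measure of unconverted cytosine, were at 0.449%, 0.662% and 0.420% for the 3 young libraries and at 0.499% and 0.441% for the 2 old ones. The part of conversion in the window's differences was not tested.

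The spread also stood out by tile. Reads were summed in 135997 tiles of 1000 bp over the genome, and the median tile ranged over 5.33 points between its highest and lowest library. The 6 tiles of the window ranged over 20.8 to 46.4 points, on 7326 to 126626 reads per library, and 4 of them by at least 25 points, a range that 1.98% of all tiles reached. The tile at 39846001 to 39847000 was at 39.8%, 60.5% and 25.6% for the 3 young libraries and at 60.0% and 72.0% for the 2 old ones. Its range of 46.4 points was larger than that of 99.96% of tiles, and the young libraries alone spread by 17.6 points (SD, n = 3). No tile of the window passed the test for age (quasi-binomial model with moderated dispersion, adjusted p under 0.05 and at least 10 points; smallest adjusted p = 1), and 0% of all tiles did. At an unadjusted p under 0.05 were 5 of the 6, against 2.71% of all tiles. With limma 0 were called (0% of all tiles), and 3 passed 0.05 before adjustment, against 3.89% of all tiles. Without young replicate 2 the count was 2 of 6, among 3 tiles called over the genome.

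**Figure D2:**
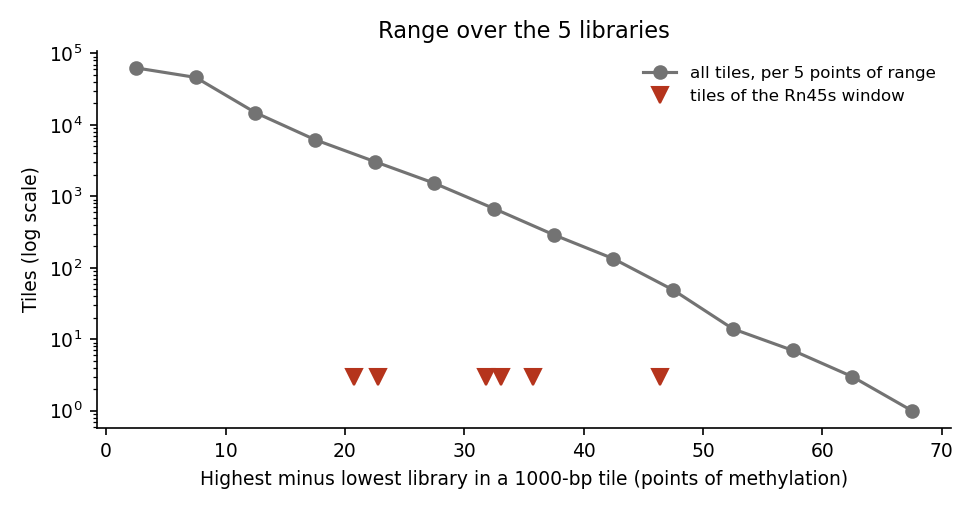
Number of 1000-bp tiles (vertical log axis) by the difference between their highest and lowest library in points of methylation (horizontal axis, steps of 5 points); grey points are all tiles, and red triangles mark the 6 tiles of the Rn45s window at their own range, placed at an arbitrary height. The red triangles lie between 20.8 and 46.4 points, and the median tile is at 5.33.

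Methylation depended on the position along the transcribed unit: in 12 of the 15 pairs of 1000-base segments the same one was higher in every library. The first 1000 bases were the lowest, with 17.7%, 29.9% and 11.7% for the 3 young libraries and 23.4% and 32.2% for the 2 old ones. From 1001 to 2000 it was 28.8% ± 11.8 (young) and 48.9% ± 8.04 (old), and here both old libraries (43.2% and 54.6%) lay above all young ones (23.9%, 42.3% and 20.2%). It peaked from 2001 to 3000 (39844900 to 39845899), at 54.7%, 71.0% and 46.8% in the young and 68.8% and 78.2% in the old libraries. This segment was above each of the other 5 in 5 of 5 libraries, by 40.9 points on average over the first and by 15.2 over the next one (exact sign-flip tests, p = 0.062 each, adjusted p = 0.0781 over 15 pairs of segments). From 3001 to 4000 the levels were 41.4% ± 14.6 and 59.6% ± 8.92. The last segments, 4001 to 5000 and 5001 to 6000, were at 28.6% ± 9.70 and 29.6% ± 12.3 in young and 35.3% ± 8.54 and 43.4% ± 7.15 in old sperm, and neither was higher in every library (exact sign-flip test, p = 0.25).

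**Figure D3:**
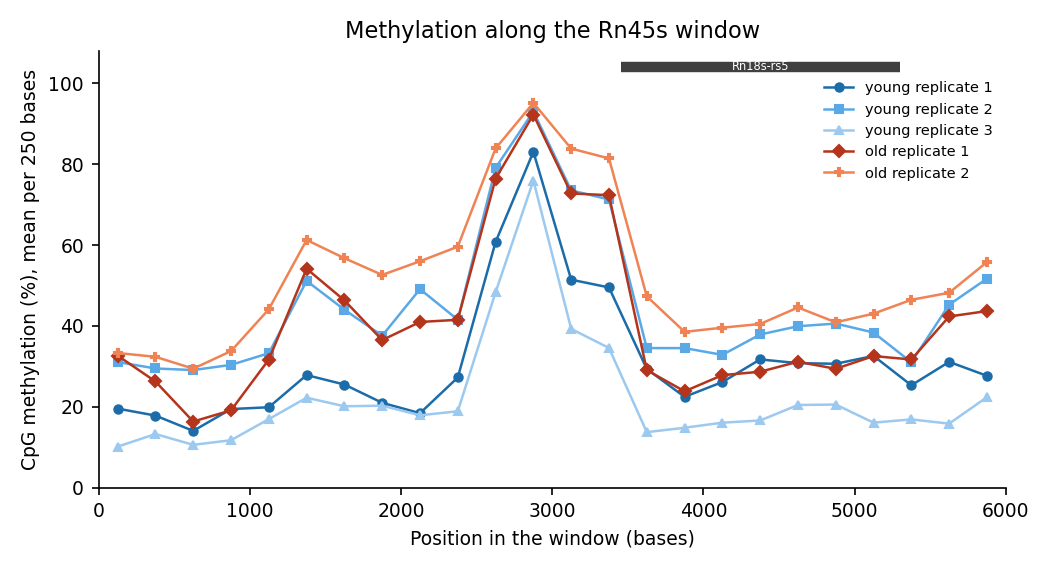
CpG methylation in percent (vertical axis), averaged over steps of 250 bases, against the position in the window (horizontal axis, bases) for each of the 5 libraries; the dark bar marks Rn18s-rs5. All libraries peak between 2751 and 3000, from 75.9% in young replicate 3 to 95.1% in old replicate 2, and drop where Rn18s-rs5 begins.

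At steps of 250 bases the peak was sharp. From 2251 to 2500 the level was 27.3%, 41.5% and 18.9% for the 3 young libraries and 41.5% and 59.6% for the 2 old ones, and from 2751 to 3000 it was 83.0%, 93.0% and 75.9%, and 92.2% and 95.1%. A shoulder followed from 3251 to 3500, at 49.5%, 71.3% and 34.6% and at 72.3% and 81.4%. From 3501 to 3750, just inside Rn18s-rs5, it was 29.4%, 34.5% and 13.8%, and 29.1% and 47.3%. The steps of highest and of lowest level lay before Rn18s-rs5 in all 5 libraries.

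Rn18s-rs5, with 140 CpGs, was at 28.7%, 36.5% and 16.8% for the 3 young libraries and at 28.8% and 41.8% for the 2 old ones. Old replicate 1 was level with young replicate 1 here and below young replicate 2, and the ages differed by 7.94 points (exact permutation test, p = 0.4). The 363 CpGs before it were at 36.3%, 53.3% and 29.2%, and at 51.7% and 61.8%, a difference of 17.1 points between the ages (exact permutation test, p = 0.3). Within libraries Rn18s-rs5 was 15.9 points below the stretch before it, in 5 of 5 libraries (exact sign-flip test, p = 0.062). Without the 1000 bases of highest level (39845400 to 39846399), a stretch chosen after its values were seen, the gap was 2.14 points, and Rn18s-rs5 was higher by 6.71 in young replicate 1 and lower in the other libraries. The 81 CpGs after Rn18s-rs5 were at 28.8%, 43.6% and 17.9%, and at 40.0% and 50.1%.

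By segment the old libraries were higher on average in all 6, by 6.67 points (4001 to 5000) to 20.1 points (1001 to 2000), and none passed (exact permutation tests, smallest p = 0.2, smallest adjusted p = 0.45). The direction held in all 66 alternative values of the segments, with differences between 0.631 and 26.8 points. The segments are not independent, since they come from the same libraries. Young replicate 3 was the lowest at 534 of the 584 CpGs and old replicate 2 the highest at 527. Over all tested CpGs these shares were 24.7% and 10.99%. Ties were counted for the library first in order, so old replicate 2, the last, was counted only where it alone was highest. Its share over all tested CpGs is too low wherever libraries tie, and shares without ties were not counted. The other libraries changed places: old replicate 1 was above young replicate 1 from 1001 to 2000 (43.2% against 23.9%) and just below it from 4001 to 5000 (29.2% against 29.7%). Young replicate 2 was above old replicate 1 at 411 of the 584 CpGs.

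Coverage moved with the level. Reads per CpG of the window, divided by the median over autosomal CpGs of the same library, gave a relative coverage of 11.5, 12.9 and 4.33 for the 3 young libraries and of 12.0 and 18.7 for the 2 old ones. Young replicate 3 had both the lowest relative coverage and the lowest level, and old replicate 2 both the highest, and the 5 libraries came in the same order by either measure. The means were 9.60 ± 4.62 (SD, n = 3) and 15.4 ± 4.74 (SD, n = 2), and the difference between the ages did not pass the test (exact permutation test, p = 0.4). Relative coverage is not a copy number, since the files leave out cytosines under 5 reads. Without old replicate 2 the difference between the ages fell from 5.77 to 2.42, and without young replicate 3 to 3.14. It was 9.12 without old replicate 1, 3.75 with the mean over autosomal CpGs in place of the median, and 2.07 without the 1000 bases of highest level.

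The reads were then split into methylated and unmethylated ones. Methylated reads per CpG, on the same relative scale, were 4.87, 8.28 and 1.27 for the 3 young libraries and 7.31 and 13.3 for the 2 old ones, a 10.5-fold range. Unmethylated reads per CpG were 6.66, 4.65 and 3.06, and 4.71 and 5.42, a 2.18-fold range. In the old libraries the mean of the methylated reads was 10.3 ± 4.24 and in the young ones 4.81 ± 3.51 (exact permutation test, p = 0.3), while the unmethylated means were 5.06 ± 0.499 and 4.79 ± 1.81 (exact permutation test, p = 0.8). The level of a CpG is the share of the first in the sum of both, so these values restate the level and the coverage together.

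The stretch of highest level was also deeply covered. Over its 1000 bases (127 CpGs) the relative coverage was 19.8, 31.8 and 5.95 in the young and 28.7 and 48.0 in the old libraries, against 9.22, 7.68 and 3.88, and 7.39 and 10.6, elsewhere in the window. In young replicate 3 the bases 4001 to 5000 had more reads per CpG (208.4) than this stretch (190.5). Methylated reads in the stretch were at 13.8, 27.5 and 3.43, and at 24.4 and 43.4, against 2.39, 2.95 and 0.672, and 2.57 and 4.95 elsewhere in the window. Unmethylated reads were at 6.04, 4.35 and 2.53, and at 4.29 and 4.58, against 6.83, 4.73 and 3.21, and 4.83 and 5.65 elsewhere. In all 5 libraries the stretch thus had more methylated and slightly fewer unmethylated reads than the rest of the window. Without the stretch the mean level of the window was 27.2% ± 10.995 (young) and 40.8% ± 8.30 (old), and the difference of the ages was 13.6 points (exact permutation test, p = 0.3).

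**Figure D4:**
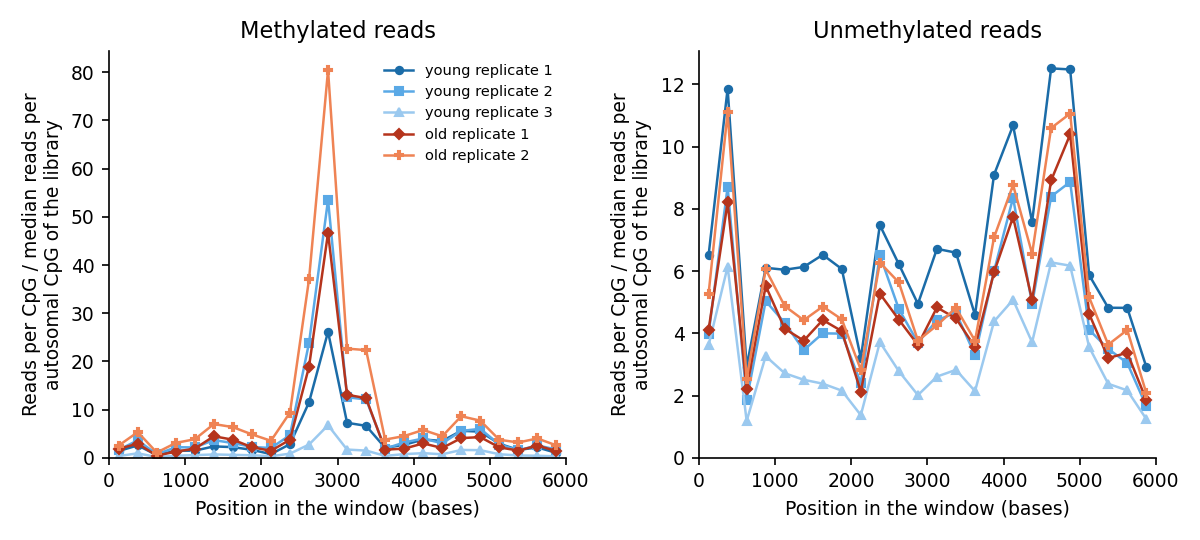
Methylated (left) and unmethylated (right) reads per CpG, divided by the median reads per autosomal CpG of the library (vertical axes, of different scale), in steps of 250 bases along the window (horizontal axes, bases) for each library. Methylated reads peak between 2751 and 3000 in all libraries, and unmethylated reads have no peak there.

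CpGs within the window also differed among themselves. The SD among the 584 CpGs was 17.3 to 21.3 points in a library. In young replicate 3, 55.5% of the CpGs were under 20% and 2.57% over 80%; in old replicate 2 these shares were 0.685% and 18.8%. The lower and upper quartiles were 14.6% and 26.6% in young replicate 3 and 41.0% and 62.8% in old replicate 2. The profile over CpGs correlated between libraries with r = 0.856 to 0.966 (584 CpGs, which share reads and libraries). Without the 1000 bases of highest level it was 0.373 to 0.859 over 457 CpGs, highest between the old replicates and lowest between young replicate 1 and old replicate 2.

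Single CpGs were tested in a quasi-binomial model over all 984827 CpGs. In the window 259 of 584 (44.3%) were called, all higher in old sperm, where 0.0551% of all tested CpGs were called; 478 (81.8%) had an unadjusted p under 0.05, against 4.13% of all. This count rests on the moderated dispersion. The window's CpGs had a median dispersion of 9.90 over the libraries of an age, against 0.874 for all CpGs, and moderation with 160.3 prior degrees of freedom drew it to 1.4. The window's own spread between libraries hence has almost no weight in the count. With each CpG's own dispersion 0 were called, and 7 of the 584 had an unadjusted p under 0.05, against 0.157% of all CpGs. With a prior from all CpGs 0 were called and 61 passed before adjustment, against 0.745% of all. With limma on the log2 odds 0 were called and 156 passed before adjustment, against 4.32% of all. In these 3 settings 0% of all tested CpGs were called, so the 0 of the window is no lower than the background. The count also moved with single libraries. It was 0 without young replicate 1, 0 without old replicate 1 and 0 without old replicate 2, where 0, 1 and 0 CpGs were called over the genome and 330, 454 and 70 of the window passed before adjustment. It was 13 without young replicate 3 (66 over the genome) and 337 without young replicate 2 (495 over the genome). At 119 of the 259 called CpGs young replicate 2 lay above old replicate 1.

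The sign of the difference was nearly uniform. Old sperm had the higher mean at 579 of the 584 CpGs and the lower at 5, where 51.2% of all tested CpGs were higher. The median difference was 14.6 points in the window and 0.120 over all tested CpGs. The window's CpGs share reads and the same 5 libraries, so their signs are not independent. Both old libraries lay above all young libraries at 170 CpGs (29.1%), against 7.09% of all tested CpGs, and below all of them at 0, against 7.5%. Of the called CpGs, 96 lay from 1001 to 2000, 73 from 2001 to 3000, 62 from 3001 to 4000, 14 from 1 to 1000, 2 from 4001 to 5000 and 12 from 5001 to 6000.

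The 10 CpGs with the smallest p all lay from 39846031 to 39846222, between the peak and Rn18s-rs5. The CpG at 39846150, the first of them, was at 46.9% (95% Wilson interval 41.9% to 52.0%) in young replicate 1, 71.2% (66.9% to 75.2%) in young replicate 2 and 32% (25.5% to 39.2%) in young replicate 3. In the 2 old libraries it was at 71.7% (67.8% to 75.3%) and 83.2% (80.4% to 85.6%), on 175 to 814 reads per library. The intervals of young replicate 2 and old replicate 1 overlapped. The means were 50.04% ± 19.8 (SD, n = 3) and 77.4% ± 8.10 (SD, n = 2). The adjusted p of 5.30e-09 (quasi-binomial model with limma-type moderation) has the limit given above: its own dispersion is not what the test uses. Intervals cover counting error within a library only. They may be too narrow even for that, because reads without molecular identifiers are not all independent molecules.

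The largest differences were 29.5 points at 39844988, on 11 to 40 reads per library and with an adjusted p of 0.959 (quasi-binomial model), and 27.5 at 39844171. The latter was at 17.9%, 45.0% and 11.8% for the 3 young libraries and at 46.6% and 58.3% for the 2 old ones. The most methylated CpG was that at 39845743, in the peak, with 88.0%, 95.5% and 83.2%, and 94.9% and 97.7%, on 327 to 2405 reads. The libraries came in the same order here as over the whole window. The most covered CpG was that at 39845774, with a mean of 1384 reads. The lowest were at 39843517, in the first 1000 bases, with 9.39% ± 3.08 (young) and 14.2% ± 10.02 (old) on 33 to 66 reads, and at 39848454.

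The CpG at 39848454, after Rn18s-rs5, was the only one of the 584 that departed from the median of its 10 nearest CpGs by at least 10 points in the same direction in all 5 libraries. This measure was chosen after the data were seen. It was at 12.2% (95% Wilson interval 5.73% to 24.2%), 13.9% (6.08% to 28.7%) and 4% (0.710% to 19.5%) for the 3 young libraries. In the 2 old libraries it was at 13.5% (6.68% to 25.3%) and 13.3% (6.26% to 26.2%). Its neighbours were 26.2 points higher on average. Among the 5 CpGs with a lower mean in old sperm the differences were -4.07 (39843573), -1.07 (39848822), -0.610 (39843571), -0.241 (39847831) and -0.143 points (39843621). The deepest of them, at 39847831, averaged 31.0% ± 10.1 over the young and 30.8% ± 6.51 over the old libraries on 239 to 396 reads. None of the 5 was called.

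The cytosines of both strands were measured separately at 556 CpGs. The plus strand was at 33.6%, 45.9% and 24.6% for the 3 young libraries and at 44.2% and 54.4% for the 2 old ones, and the minus strand at 34.8%, 49.9% and 26.0%, and at 46.1% and 56.7%. The minus strand was higher in 5 of 5 libraries, by 2.17 points on average (exact sign-flip test, p = 0.062). At 5181 other CpGs with both strands measured the same difference (plus strand less minus strand) averaged -0.239 points. The window lay below this in 5 of 5 libraries (exact sign-flip test, p = 0.062). These 5181 are a small part of the 984827 tested CpGs. At least 10 reads in all 5 libraries were reached by 474488 CpGs on the plus strand and by 464378 on the minus strand. Most CpGs of such depth thus had it on a single strand, and the 5181 may not stand for them. Weighted by coverage the direction turned, and the plus strand was higher by 3.79 points. The ages did not differ in the strand difference beyond the spread (0.101 points; exact permutation test, p = 1).

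The strand difference depended on the position. The plus strand was lower in all 5 libraries in the first 1000 bases, with differences of -14.5 to -3.03 points, from 1001 to 2000 (-6.84 to -1.41) and from 5001 to 6000 (-10.6 to -1.21). From 3001 to 4000 it was higher in all 5, by 1.81 to 9.15 points, and the other segments had no common direction. At 6 CpGs the plus strand was higher by at least 10 points in every library and at 5 the minus strand was. The CpG at 39846343, just before Rn18s-rs5, had 47.6%, 72.2% and 41.9% on the plus and 30.9%, 49.0% and 18.4% on the minus strand of the 3 young libraries, and 64.3% and 82.9% against 53.8% and 68.2% for the 2 old ones. The CpG at 39848406 was the reverse, with 21.7%, 26.3% and 0% on the plus and 43.5%, 54.5% and 20% on the minus strand in the young libraries. These CpGs were chosen after their values were seen. Reads of the plus and minus strands were nearly equal in number, with a ratio of 0.898 in young replicate 3 and 1.005 to 1.03 in the others.

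**Figure D5:**
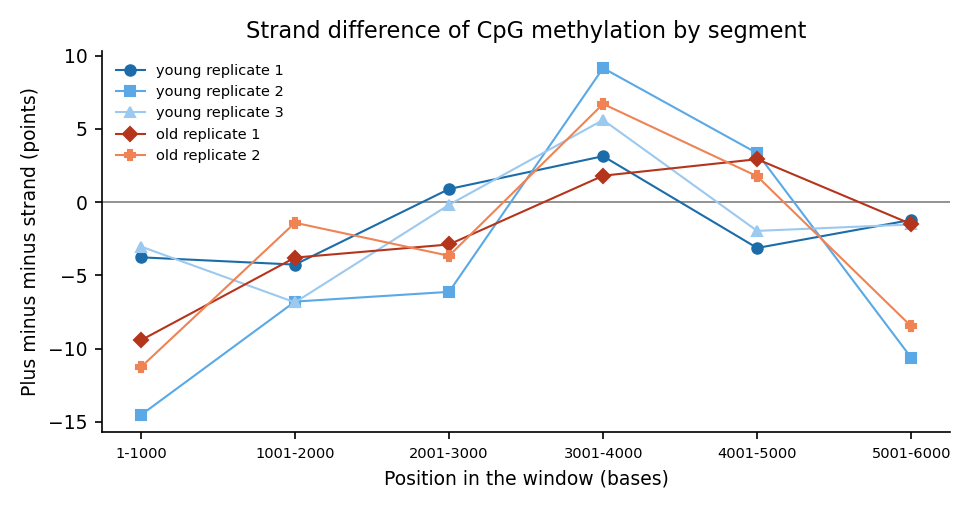
Level of the plus strand minus that of the minus strand in points of methylation (vertical axis) for each segment of 1000 bases of the window (horizontal axis) and each library. All libraries are below 0 from 1 to 1000, 1001 to 2000 and 5001 to 6000, and above 0 from 3001 to 4000.

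Genes whose products transcribe and process ribosomal RNA were compared at their gene ends. For each gene the end with the lower level over all reads was taken, where measured. Whether that end is the start of the gene was not tested, so levels of different genes may not stand for like places. Of 40 listed, 3 were measured: Polr1b, encoding a large subunit of RNA polymerase I, Nop58, of the snoRNPs that methylate rRNA, and Dkc1, of those that pseudouridylate it. None was called, as none of 4972 gene ends was (0%, quasi-binomial model; before adjustment 0 of the 3 passed 0.05, and with limma 0 were called and 0 of the 3 passed before adjustment, against 3.42% of all ends). Polr1b was at 22.3% ± 5.5 (young) and 29.9% ± 4.85 (old) on 34 to 54 reads, Nop58 at 94.5% ± 7.72 and 94.1% ± 5.52, and Dkc1 at 97.9% ± 0.710 and 97.2% ± 1.23. Of the list 1 was higher and 2 lower, with a median difference of -0.446 points against 0.0722 over all ends, too few ends to compare with the window.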

How the data were processed

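The authors used Bismark 0.16.3, methylKit 1.4.0, Trim Galore 0.4.3 and the mm10 build, according to the submitters' processing notes. Settings and duplicate removal are not given there. The deposited files list the coverage as a count of reads per cytosine and strand, and the percent of them with C (methylated) or T, per the file headers, with no cytosine under 5 reads. Percent times coverage gave whole reads for 100% of cytosines, within the rounding of the percent. Strands were summed per CpG; levels are means over CpGs that reached 10 reads in every library.

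Libraries were compared by exact tests. Each CpG, 1000-bp tile of at least 3 CpGs and gene end (1000 bp either side, at least 3 CpGs) across the genome was tested with a quasi-binomial model whose dispersion was moderated as in limma and not let under 1, with Benjamini-Hochberg adjustment. The prior for CpGs was set on sites whose binomial variance was expected to reach 2. Tests were checked on simulated data. Counts for the quasi-binomial model were drawn at the estimated prior dispersion, well under the median of 9.90 of the window's CpGs. The check therefore does not cover the 259 calls in the window. The window, which is defined by position, and the lists and tests were chosen with earlier results of these data known. Named CpGs were up to 10 called, the 5 highest and lowest in level and in difference and the 2 in coverage; not every one is printed. Nearest CpGs to the start of Rn45s could not be named, as the annotation (RefSeq, GRCm38.p6) has no such entry, so segments were counted from the window's first base. Alternatives covered coverage limits, weighting, strands, dispersion, thresholds, widths, denominators, limma 3.58.1 (R 4.3.3), libraries left out and the replicate number. The rest was done in Python 3.11.15 (scipy 1.17.1, numpy 2.4.6, matplotlib 3.10.9, pandas 2.3.3). The window's sequence was not used here.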

Additional observations from a re-analysis of the deposited data

How the results depend on the processing

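The count of called CpGs in the window, 259 of 584, was the least stable result. Of 543 CpGs called over the genome these were 259; the window held 125 of 193 called with at least 20 reads, and 17 (of 138 tested) of 174 with no CpG in the top 0.1% of coverage. It was 122 of 223 and 155 of 261 with the plus or minus strand alone, and 0 of 0 with a prior from all CpGs, with each CpG's own dispersion and with limma. Leaving out each library gave 0 to 337; the prior changed with it. With the replicate number as a block, which uses numbers 1 and 2 alone, it was 137 of 355, the count of called tiles 2 of 275 and the mean difference 9.29 points. The labels do not say that a number marks a shared source, and same-numbered libraries correlated in their deviations with r = 0.00805 and -0.0138, so the numbers were not taken as pairs. Called tiles of the window were 4 of 359 called in the binomial model, and 0 to 2 with a library left out. The relative coverage differed between the ages by 22.5 when divided by the median over all listed autosomal CpGs, a smaller denominator by construction (exact permutation test, p = 0.1), against 5.77. The strand difference was 3.79 points when weighted by coverage, against -2.17. Only CpGs inside an annotated Rn45s could not be tried, since the annotation has none.

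Of 28 CpGs chosen by the rule, 8 changed sign. Their differences with all libraries ran from -4.07 points at 39843573 to 8.88 at 39848818, the latter on 13 to 23 reads. With a library left out, old minus young ranged from -2.25 to 11.9 points at 39843517, -4.28 to 7.34 at 39843554, -8.00 to 10.2 at 39843571, -10.9 to 4.80 at 39843573, -5.91 to 5.62 at 39843621, -5.49 to 4.56 at 39847831, -2.55 to 16.7 at 39848818 and -14.0 to 11.8 at 39848822. With the replicate block they were -3.12 at 39843554 and -2.55 at 39848818. Depth limits single CpGs: the least covered had 10 to 18 reads, depending on the library.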
